A study of Rattus norvegicus with 6 samples.

Results

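Chemokines are small secreted proteins that draw leukocytes along a gradient, and their genes were read here in the colon of rats that had received a carcinogen. The members were the rat genes of RefSeq named Ccl, Cxcl, Xcl or Cx3cl with a number, together with Pf4 and Ppbp, the platelet chemokines that carry older names. The rule fits 36 RefSeq genes, and 35 of them were matched to 38 of the 30367 probes of the array, Cxcl3 being the gene with no matched probe. The authors' normalized table, which holds 23997 probes, includes 30 of the ligand probes, for 28 genes. By textbook role, 4 of the 35 genes were homeostatic lymphoid chemokines, 8 epithelial, 4 neutrophil-attracting, 3 interferon-induced, and 16 attract monocytes, eosinophils or lymphocytes.

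A chemokine acts through a G protein-coupled receptor on the responding cell, and most receptors bind several ligands. Homeostatic chemokines such as Ccl19, Ccl21, Cxcl12 and Cxcl13 are made without infection and place T cells, B cells and dendritic cells in lymphoid tissue, which in the colon includes patches and follicles in the gut wall. Inflammatory chemokines are switched on in injured or infected tissue by signals such as NF-kappa B and interferons, and epithelial chemokines are made by the cells that line the gut and other surfaces.

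The comparison asked how the colon differed between 3 rats of the S.LEW congenic strain, C1 to C3, and 3 rats of the S strain, S1 to S3, with 1 Agilent array for each. S is the Dahl salt-sensitive strain (SS/Jr), an inbred model of hypertension. The congenic strain, S.LEW(10)x12x2x3x5, has a short piece of the Lewis rat genome placed on the S background, which holds the protein-coding gene Rffl. All 6 rats were male and 30 weeks old, ate a low-salt diet of 0.3% NaCl, and from 6 weeks of age had received 2 weekly injections of azoxymethane (AOM), a colon carcinogen, at 15 mg per kg. No array of a rat without AOM was analysed here, and whether the tissue used for RNA held tumors is not given in the sources used here.

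Unless stated otherwise, a value is the authors' quantile-normalized log2 signal, and a log2 fold change is the congenic mean minus the S mean, so a negative value means lower in the congenic strain. SE is the standard error of that difference from limma. The strains were tested with limma over all 23997 probes, and a probe was called at the cut-offs of the study, an unadjusted p under 0.05 with at least a 2-fold change. These p-values measure the spread between single rats of each strain, and an exact permutation test of 3 against 3 rats cannot give a p below 0.10. The array of S2 stood apart from the other S arrays. Over all probes it correlated at 0.967 to 0.976 with the congenic arrays, at 0.900 with S1 and at 0.937 with S3. The correlation of S1 with S3 was 0.980. The main results are therefore given with and without S2, although no label sets this rat aside. S2 was picked from these same values for its likeness to the congenic arrays. The p-values without S2 are therefore descriptive and are no evidence of a strain difference. Slides were inferred from a scan identifier in the scanner headers, and no label names a slide. By this reading slide 1 carried C1 and the 3 S arrays, and C2 and C3 were on the other slide. Only C1 therefore stands for the congenic strain in a comparison within slide 1. S1 and S3 were the brightest arrays before normalization, with median scanner intensities of 594 and 445 against 214 to 291 on the other 4, S2 included, and with the most spots well above background (86.3% and 87.6%, against 73.8% to 83.2%). The part of array brightness in the results was not tested.

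Several lists of cell type markers moved with the chemokines, as the plot of marker lists by rat shows, and others did not. All 10 measured markers of colon epithelium, of 12 listed, were well above background on every array. Their mean log2 signal was 12.88 to 13.41 in the congenic rats and 12.28 to 12.56 in the S rats. Of these 10, 2 were called higher, where 3.23% of all probes were, and Satb1 (-0.50) had a lower congenic mean. T cell markers had 8 of 12 in the table, 5 of them called lower in the congenic strain, where 2.34% of all probes were. The mean of this list was 6.88 to 6.996 in the congenic rats against 10.31 in S1, 6.85 in S2 and 10.33 in S3. B cell markers had 4 of 11 in the table, with a mean of 7.05 to 7.57 in the congenic rats against 12.34 in S1, 7.26 in S2 and 11.71 in S3. Among these 4, Pax5 was level between the strains (-0.02). For both lists S1 and S3 stood well above the congenic rats and S2 did not. Another 4 T cell and 4 B cell markers, outside the table, were well above background on S1 and S3 alone. Of the 6370 probes outside the table, 15.4% had this pattern. The 6 measured markers of lymphoid stroma and high endothelial venules, of 8 listed, had means of 8.09 to 8.30 in the congenic rats, against 10.14 in S1, 8.39 in S2 and 9.96 in S3. In this list 4 were called lower, where 2.34% of all probes were, and Ltbr (0.78) and Chst4 (0.09) had higher congenic means. Macrophage markers had means of 8.96 to 9.49 against 9.98, 8.74 and 10.00, over members that went both ways. Csf1r, the receptor of a macrophage growth factor, was called lower in the congenic strain (-1.42), and the scavenger receptors Cd163 (1.85) and Mrc1 (1.03) were called higher. Lyz2, the macrophage lysozyme, reached 15.66 in S1 and 15.20 in S3, the other rats lying at 11.62 to 12.19. Smooth muscle markers had the opposite order, with means of 14.22 in S1 and 15.26 in S3 but 16.13 to 16.36 in the congenic rats and 16.45 in S2. Without S2, 5 of the 7 smooth muscle markers were called higher, where 9.99% of all probes were. With S2 included, list means set the strains apart for colon epithelium and lymphoid stroma, given above, and for fat cell, striated muscle and neutrophil markers. Fat cell means were 6.97 to 7.64 in the congenic and 6.26 to 6.49 in the S rats. Neutrophil means were 4.82 to 5.37 and 5.47 to 6.53, over 5 genes that went both ways. Only 1 of the 5 neutrophil markers was called lower, where 2.34% of all probes were, and S100a9 (0.34) had a higher congenic mean. On all 6 arrays 3 of the 5 were well above background. Striated muscle means were 7.15 to 7.73 and 8.23 to 9.61, over 7 genes that went both ways. Of these 3 were called lower, where 2.34% of all probes were, and Acta1 (0.42) and Ckm (0.15) had higher congenic means. Only 4 of the 7 were well above background on all 6 arrays. In such pieces of whole colon, fewer cells of a type and less RNA per cell cannot be told apart, and the part of the cell makeup in the chemokine results was not tested.

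**Figure D1:**
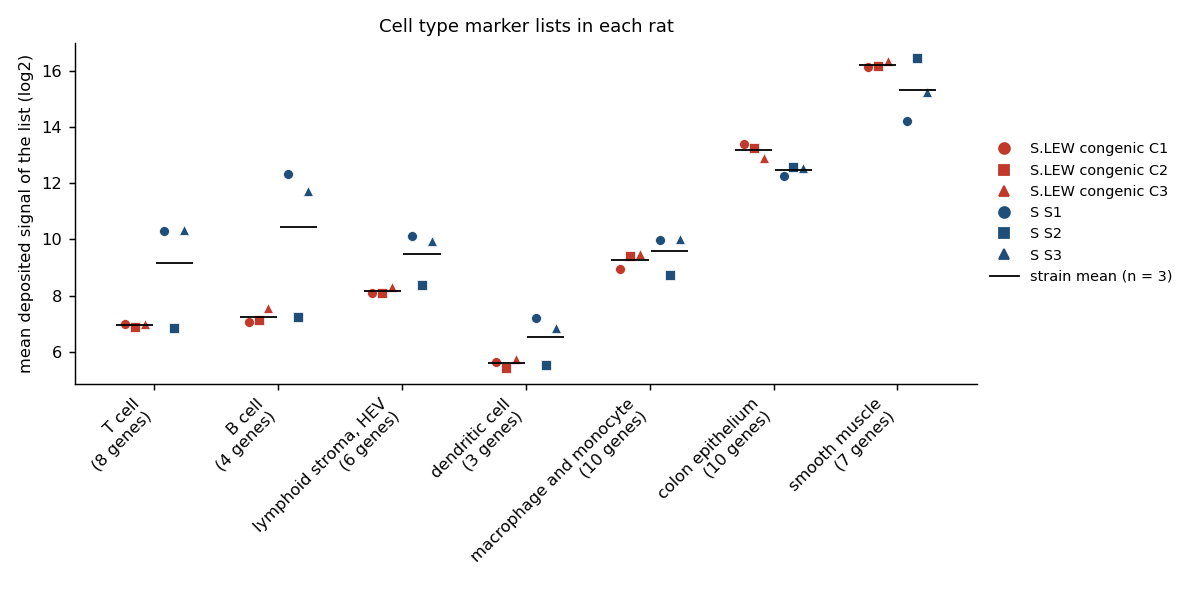
Mean deposited log2 signal of 7 marker lists in each rat, with the congenic rats in red, the S rats in blue and a line at each strain mean (n = 3). In the T cell, B cell and lymphoid stroma lists S1 and S3 lie above all congenic rats, and S2 lies within 0.1 of the congenic range or inside it.

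Of the 30 ligand probes, 3 were called lower in the congenic strain (Ccl19, Ccl21 and Ccl2) and 1 higher (Ccl11). Over all probes, 2.34% were called lower and 3.23% higher, against 10.0% and 3.33% of the ligand probes. None passed a Benjamini-Hochberg adjusted p of 0.05, with limma or with the methods' t-test, and no probe of the whole table did. At an unadjusted p under 0.05, limma gave 5 ligand probes, where 13% of all probes passed. The methods' t-test gave 4, where 2594 of all 23997 probes passed. The median log2 fold change was -0.35 over the ligand probes and 0.01 over all probes, and 19 of the 30 lay below 0, or 21 with the values averaged over spots, with which the dim Cxcl1 and Ppbp turned sign. The strains did not overlap for 8 ligand probes, 5 lower in the congenic strain (Ccl19, Ccl21, Ccl2, Ccl7 and Ccl5) and 3 higher (Ccl11, Cx3cl1 and Ppbp), where 5.33% and 12.4% of all probes behaved so. With the spot averages Ppbp overlapped, and the counts were 5 lower and 2 higher. S2 had the lowest value of the S rats at 21 of the 30 (70.0%), against 40.0% of all probes. Without S2, 12 ligand probes of 11 genes were called lower and 1 (Ccl11) higher, against 7.19% and 9.99% of all probes. The lower ones were Ccl19, Ccl21, Cxcl13, both probes of Ccl20, Cxcl16, Ccl2, Ccl7, Ccl9, Ccl17, Ccl22 and Cxcl9. In that fit the median was -0.80 against 0.06 for all probes, and limma gave 14 ligand probes lower and 2 higher at an adjusted p under 0.05, against 10.6% and 12.5% of all probes. The number called lower was 2 with any one of the other 5 rats left out, where 1.38% of all probes were called lower without S1 and 0.8% without S3.

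**Figure D2:**
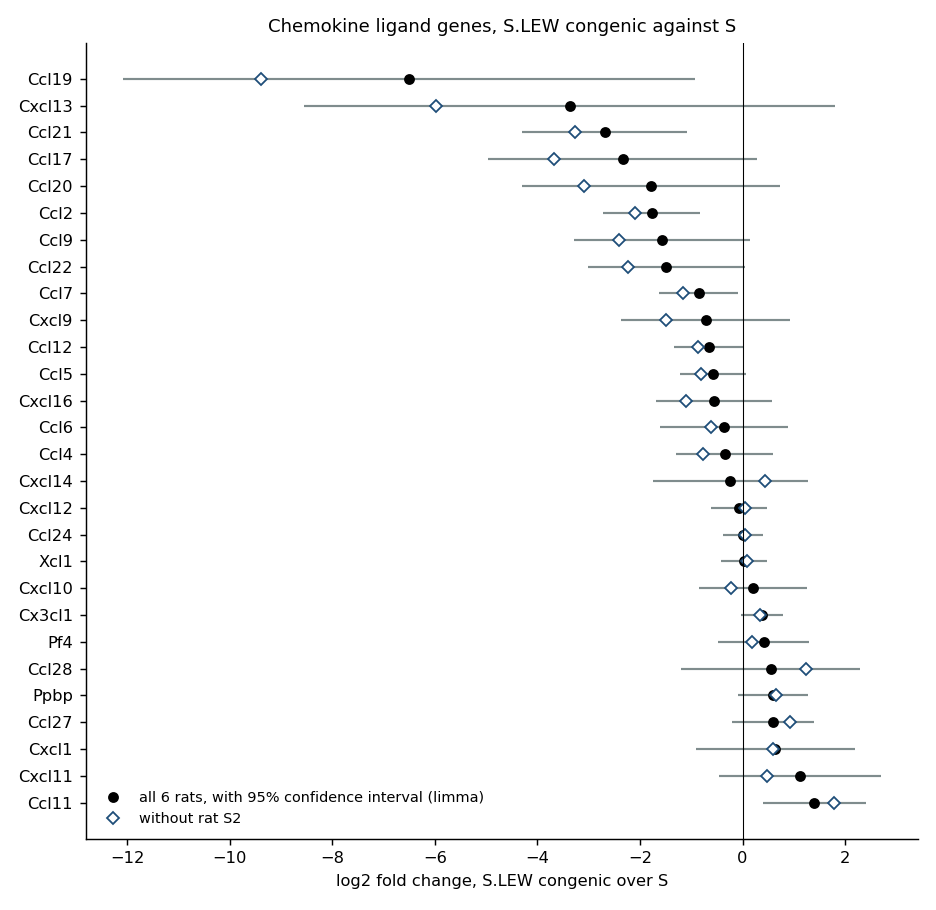
Log2 fold change of the 28 ligand genes in the deposited table, S.LEW congenic over S, each by its brightest probe. Black points with bars give the difference over all 6 rats and its 95% confidence interval, and open diamonds the difference without S2, which lies further from 0 for Ccl19 (-9.38 against -6.50), Cxcl13, Ccl17 and Ccl20.

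The control region of a few of these genes is shown, of Ccl19, Ccl20 and Ccl9 because their signals were high in the same 2 rats, S1 and S3, and of Ccl7 because it lies beside Ccl2. RefSeq promoters of the GRCr8 assembly, from 250 bases before to 50 after the start, were in hand for 29 of the 35 genes, and both strands were searched. The kappa B consensus, the site of NF-kappa B, occurred in 8 of the 29 (Ccl20, Ccl7, Ccl9, Cxcl1, Cxcl2, Cxcl6, Cxcl10 and Cxcl11) and in 7.51% of all 33469 promoters. The interferon-stimulated response element, searched as GAAA repeated after a gap of 2 bases, occurred in 2 (Ccl19 and Cxcl10) and in 3.92% of all, and the STAT6 site, searched as TTC and GAA with 4 bases between, in 2 (Ccl17 and Cxcl10) and in 7.28%. The TATA box TATAAA occurred in 10 of the 29 and in 14.2% of all. In the 4 sequences shown no capitalized match overlapped another motif searched. In the first, at chr5:61761115-61761414 on the minus strand, capitals mark the interferon-stimulated response element, 51 bases before the start. In the others, at chr9:91836909-91837208 (plus strand), chr10:68868828-68869127 (minus strand) and chr10:67513845-67514144 (plus strand), capitals mark kappa B matches, 89 bases before the start in Ccl20, 106 before and 14 after it in Ccl9, and 59 before it in Ccl7. A match describes the letters only.
Ccl19: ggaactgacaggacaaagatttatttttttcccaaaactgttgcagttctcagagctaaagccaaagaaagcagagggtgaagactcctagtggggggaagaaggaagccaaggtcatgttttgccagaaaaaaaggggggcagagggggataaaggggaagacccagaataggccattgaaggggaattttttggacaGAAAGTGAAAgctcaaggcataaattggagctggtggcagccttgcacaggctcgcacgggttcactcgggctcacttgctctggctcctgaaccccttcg
Ccl20: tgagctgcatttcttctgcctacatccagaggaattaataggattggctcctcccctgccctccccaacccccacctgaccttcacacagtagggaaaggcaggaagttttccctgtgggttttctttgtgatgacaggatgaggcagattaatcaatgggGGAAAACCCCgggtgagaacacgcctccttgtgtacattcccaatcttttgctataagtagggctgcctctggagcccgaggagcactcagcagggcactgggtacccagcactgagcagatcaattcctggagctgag
Ccl9: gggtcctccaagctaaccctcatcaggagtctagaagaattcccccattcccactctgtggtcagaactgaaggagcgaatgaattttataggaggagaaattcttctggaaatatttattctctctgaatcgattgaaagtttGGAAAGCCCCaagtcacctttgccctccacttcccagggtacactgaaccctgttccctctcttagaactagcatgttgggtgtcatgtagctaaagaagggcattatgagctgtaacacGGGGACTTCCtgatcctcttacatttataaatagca
Ccl7: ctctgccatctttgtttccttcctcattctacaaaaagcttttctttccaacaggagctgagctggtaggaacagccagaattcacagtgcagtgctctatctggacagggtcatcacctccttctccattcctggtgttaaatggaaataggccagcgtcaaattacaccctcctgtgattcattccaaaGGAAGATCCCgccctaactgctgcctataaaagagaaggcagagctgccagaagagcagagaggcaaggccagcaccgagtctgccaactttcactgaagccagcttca

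Among the homeostatic lymphoid chemokines, 2 of 5 probes were called lower in the congenic strain and none higher. Ccl19, a Ccr7 ligand that brings T cells and dendritic cells together in lymphoid tissue, had log2 signals of 4.70, 5.23 and 3.71 in C1, C2 and C3 and of 14.08, 5.28 and 13.78 in S1, S2 and S3. S1 and S3 were very high, while S2 lay just above the highest congenic rat, so the strains did not overlap. Its log2 fold change was -6.50 (SE 2.31, limma adjusted p = 0.352), the lowest of all 23997 probes, and with 1 of the 3 congenic arrays well above background its size is uncertain. Without S2 it was -9.38 (adjusted p = 0.000883). The call was lost without each of the other rats, at -6.84 without C2, -6.08 without C3, -4.98 without S1 and -5.14 without S3, and within slide 1 the difference, at -6.35, was not called either. Nor was it called by the methods' t-test. Without C1, the congenic array well above background, its congenic signal was at least 53.1-fold lower than the S mean. S2, at 5.28, lay below the floor of 5.32 used for this bound, so the bound rests on S1 and S3.

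Ccl21, the other Ccr7 ligand, made by lymphatic vessels and lymphoid stroma, read 11.03, 10.08 and 12.09 in C1, C2 and C3 and 14.35, 12.59 and 14.34 in S1, S2 and S3. All 6 arrays were well above background, S2 again was the lowest S rat, and the strains did not overlap. The log2 fold change was -2.69 (SE 0.67, limma adjusted p = 0.268). It was -3.28 without S2 (adjusted p = 0.0202), between -2.20 and -3.20 without any other rat, and -2.73 within slide 1, and it met the cut-offs in each of these fits.

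Cxcl13, which guides B cells into follicles through Cxcr5, read 6.35, 6.70 and 8.17 in the congenic rats, against 13.84 in S1, 5.21 in S2 and 12.28 in S3. S2 was the lowest of the 6 rats, so the strains overlapped. The log2 fold change of -3.37 (SE 2.15, limma adjusted p = 0.496) was not called. Without S2 it was -5.99 (adjusted p = 0.00852).

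Cxcl12, the Cxcr4 ligand of bone marrow and mesenchymal stroma, had a pair of probes with different patterns. The brighter probe read 11.52, 10.92 and 11.26 in the congenic rats and 11.18, 11.53 and 11.18 in the S rats, which differed by -0.06 with a 95% confidence interval of -0.61 to 0.48. The rats overlapped and lay close together. The other probe read 9.75, 10.13 and 10.91 against 11.19, 8.60 and 11.21, a log2 fold change of -0.07 that was -0.94 without S2 (adjusted p = 0.110). There S1 and S3 were the highest and S2 the lowest of the 6. The sign turned on leaving out C2 or S2 for the first probe (0.09 and 0.05) and C1, S1 or S3 for the second (0.19, 0.36 and 0.37).

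**Figure D3:**
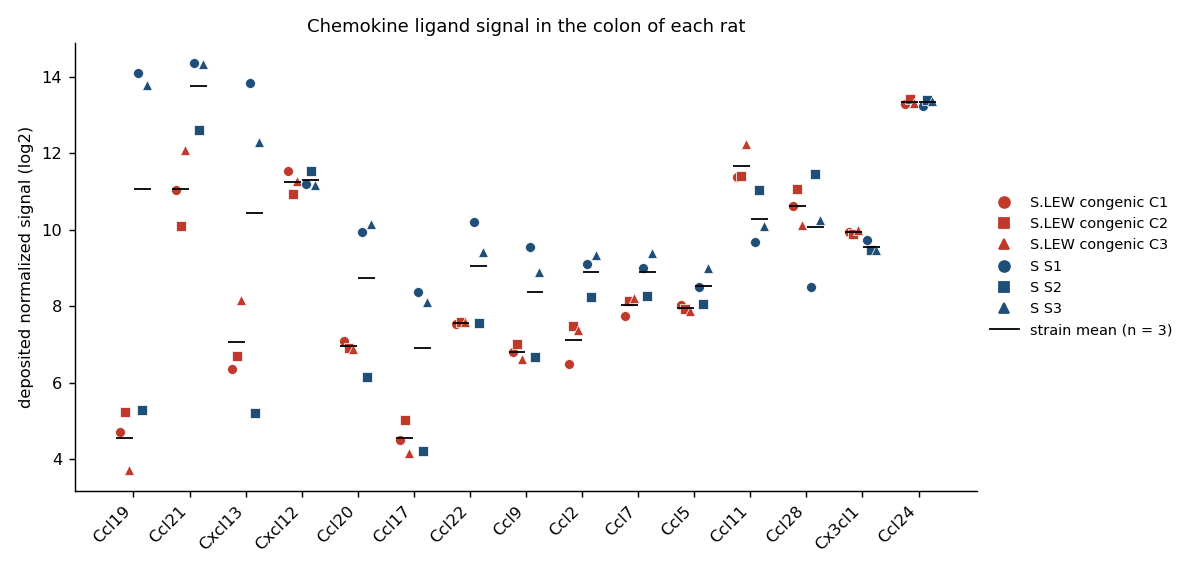
Deposited log2 signal of 15 ligand genes in each rat, congenic rats in red, S rats in blue, with a line at each strain mean (n = 3); levels of different genes are not comparable. S1 and S3 lie far above the congenic rats for Ccl19, Cxcl13, Ccl20 and Ccl17 with S2 near or below them, while for Ccl21, Ccl2, Ccl7 and Ccl5 all 3 S rats lie above, for Ccl11 and Cx3cl1 all 3 lie below, and Ccl24 stays between 13.23 and 13.42.

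No epithelial chemokine met the cut-offs over all 6 rats, in 7 probes of 6 genes. Ccl20, which the epithelium over lymphoid follicles makes and which attracts Ccr6-bearing cells, read 7.09, 6.91 and 6.87 in the congenic rats, against 9.95 in S1, 6.14 in S2 and 10.15 in S3. S1 and S3 stood well above the congenic rats and S2 below all of them. The log2 fold change was -1.79 (SE 1.04, limma adjusted p = 0.468) over all rats and -3.09 without S2 (adjusted p = 0.00105). A dimmer second probe gave 5.91, 6.22 and 5.98 against 9.40, 5.28 and 9.62, and -2.06 over all rats. Its order of rats was much the same.

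Cxcl16, a membrane-bound ligand of Cxcr6, read 9.81, 10.03 and 9.81 in the congenic rats and 11.15, 9.36 and 10.81 in the S rats. S1 and S3 were again above and S2 below the congenic rats, with a log2 fold change of -0.56 (SE 0.47) that was -1.10 without S2 (adjusted p = 0.0176). Ccl28, the mucosal ligand of Ccr10 that attracts IgA plasma cells, read 10.63, 11.07 and 10.12 against 8.50, 11.44 and 10.24. Here S1 was the lowest and S2 the highest of the 6. Its log2 fold change was 0.55 (SE 0.73), 1.24 without S2 and -0.23 without S1.

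Cxcl14, a chemokine of normal epithelium and stroma, had the same order of S rats, with 12.16, 11.89 and 12.25 against 11.07, 13.70 and 12.26, and a log2 fold change of -0.24 (SE 0.63) that was 0.44 without S2. Ccl27, a Ccr10 ligand best known from skin, read 8.81, 8.60 and 9.07 against 7.70, 8.89 and 8.11, with S1 and S3 below all congenic rats and S2 within their range. Its log2 fold change was 0.59 (SE 0.33), and 0.92 without S2 (adjusted p = 0.0393), under 2-fold. Cx3cl1, or fractalkine, a tethered ligand for Cx3cr1 on macrophages, read 9.95, 9.88 and 9.98 in the congenic rats and 9.73, 9.46 and 9.46 in the S rats. The strains did not overlap, but the difference was small, at 0.38 (SE 0.17, limma adjusted p = 0.397), and 0.34 without S2. For Cx3cl1 S2 and S3 read alike.

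Among the 18 probes of inflammatory chemokines, 1 was called lower in the congenic strain and 1 higher, and the median log2 fold change was -0.35. Ccl2, which draws monocytes through Ccr2, read 6.50, 7.47 and 7.37 in C1, C2 and C3 and 9.11, 8.23 and 9.32 in S1, S2 and S3. All 3 S rats lay above the congenic rats. The congenic mean was 7.11 ± 0.54 (SD, n = 3) and the S mean 8.89 ± 0.58 (SD, n = 3), a log2 fold change of -1.77 (SE 0.39, limma adjusted p = 0.245). It was -2.10 without S2 (adjusted p = 0.0163), between -1.47 and -1.95 without any other rat, and -2.39 within slide 1, and it met the cut-offs in each of these fits.

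Ccl7, the neighbouring gene and another Ccr2 ligand, read 7.75, 8.15 and 8.20 in the congenic rats and 8.99, 8.28 and 9.39 in the S rats. The strains did not overlap, with S2 just above the highest congenic rat. It differed by -0.85 (SE 0.32, limma adjusted p = 0.361), under 2-fold, and -1.16 without S2 (adjusted p = 0.0246), which met both cut-offs. Ccl11, or eotaxin, which attracts eosinophils through Ccr3, went the other way, with 11.38, 11.39 and 12.22 in the congenic rats and 9.66, 11.02 and 10.11 in the S rats. All 3 congenic rats lay above the S rats, of which S2 was the highest. Its difference was 1.40 (SE 0.42, limma adjusted p = 0.311), 1.78 without S2 (adjusted p = 0.0218) and between 1.102 and 1.544 without any other rat. Ccl11 met the cut-offs in all of these, but within slide 1 it was 1.12 and was not called.

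Ccl17 and Ccl22 are the ligands of Ccr4, made chiefly by dendritic cells and macrophages. Ccl17 read 4.49, 5.02 and 4.16 in the congenic rats, none well above background, against 8.37 in S1, 4.22 in S2 and 8.10 in S3. Its congenic signal was lower by at least 3.61-fold, a bound taken against the lowest signal well above background on each congenic array, with an adjusted p of 0.405 from limma. The bound was 9.13-fold without S2, 2.16-fold without S1 and 2.38-fold without S3. Ccl22 read 7.53, 7.59 and 7.59 against 10.19, 7.56 and 9.42. S1 and S3 were high, and S2 fell among the congenic rats. Ccl22 differed by -1.48 (SE 0.64, limma adjusted p = 0.389), and -2.23 without S2 (adjusted p = 0.00803).

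Ccl9, a macrophage product that binds Ccr1, had the same order, with 6.81, 7.003 and 6.61 against 9.55, 6.68 and 8.89. The difference was -1.57 (SE 0.71) and -2.42 without S2 (adjusted p = 0.00667). Cxcl9, an interferon-gamma target that attracts activated T cells through Cxcr3, read 6.46, 6.30 and 6.52 against 8.48, 5.60 and 7.36. S1 and S3 were above and S2 below the congenic rats, giving -0.72 (SE 0.68) and, without S2, -1.49 (adjusted p = 0.0365). Cxcl11, which shares that receptor, did not have this order, with 6.64, 7.02 and 6.53 against 7.08, 4.36 and 5.43. Its log2 fold change of 1.11 (SE 0.66, limma adjusted p = 0.470) was 0.48 without S2, and it met the cut-offs without S1, at 1.84. Cxcl10, the remaining Cxcr3 ligand, had a log2 fold change of 0.20, which turned to -0.22 without S2 and to -0.06 without C2.

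The other inflammatory ligands differed by less than 2-fold and were not called. Ccl5, a T cell and macrophage product, had a log2 fold change of -0.58 and strains that did not overlap, by a margin of the lowest S rat (8.05) over the highest congenic rat (8.03). Without S2 it was -0.81 (adjusted p = 0.0414), still under 2-fold. The differences of Ccl12 (-0.65), Ccl6 (-0.36) and Ccl4 (-0.35) had lower congenic means, and those of Pf4 (0.41) and Xcl1 (0.03) higher ones. Ccl24, or eotaxin-2, lay between 13.23 and 13.42 on all 6 arrays, a difference of 0.01 with a 95% confidence interval of -0.38 to 0.41. Ccl11 binds the same receptor and was called. Cxcl1 and Ppbp, both neutrophil-attracting ligands of Cxcr2, were dim, with 0 and 1 of the 3 congenic arrays well above background. Cxcl1 read 3.59, 5.91 and 5.65 against 3.96, 4.33 and 4.95, where the S signals lay too low for a bound. Ppbp differed by 0.59. For these probes the deposited values differed from the averages of their 10 spots by up to 1.48 for Cxcl1 and 1.07 for Ppbp, and with the spot averages both signs turned, so the direction of neither is settled.

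Another 8 ligand probes lay outside the deposited table and were read from the scanner intensities, quantile-normalized here. Of these, 4 were well above background on S1 and S3 alone (Ccl3, Ccl25, Cxcl2 and Cxcl17), against 15.4% of the 6370 probes outside the table. Ccl3, a Ccr1 ligand made by macrophages and T cells, read 8.19 in S1 and 7.76 in S3 on this scale, and between 2.32 and 3.49 on the other arrays. Its congenic signal was lower by at least 2.10-fold, 7.77-fold without S2, 1.02-fold without S1 and 1.18-fold without S3. Cxcl17, a mucosal chemokine, read 6.46 and 5.69 in S1 and S3 and at most 4.08 elsewhere, at least 1.13-fold lower in the congenic strain (2.08-fold without S2, with no bound without S1, S3 or C1). Ccl25, the Ccr9 ligand of small bowel epithelium, and Cxcl2, a Cxcr2 ligand, were too dim for a bound. A second Xcl1 probe was well above background on S3 alone. Ccl1, Ccl26 and Cxcl6 were well above background on no array.

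Of 23 chemokine receptors listed, 20 were matched to the array and 12 were in the table. Of these 4 (33.3%) were called lower in the congenic strain, Ccr6, Cxcr5 and Ccr2 among them, and none higher, where 2.34% and 3.23% of all probes were, and the median log2 fold change was -1.50. Ccr6, the receptor of Ccl20 on B cells and some T cells, read 6.16, 6.60 and 7.004 in the congenic rats against 12.98 in S1, 6.56 in S2 and 12.28 in S3. S1 and S3 were high, as for its ligand, and S2 fell among the congenic rats. The difference was -4.02 (SE 1.63, limma adjusted p = 0.381), and -6.04 without S2 (adjusted p = 0.00118). Cxcr5, the Cxcl13 receptor of follicular B cells, read 5.42, 5.14 and 4.59 against 8.45, 5.24 and 7.75, a log2 fold change of -2.09 with 1 of the 3 congenic arrays well above background. Again S2 lay within the range of the congenic rats, and without it the difference was -3.05. With normexp background correction it was -1.15 and not called. Ccr2, the receptor of Ccl2 and Ccl7, read 4.63, 2.38 and 3.21 against 5.90, 4.21 and 5.86, with 1 congenic array of 3 well above background and a log2 fold change of -1.92, which was -2.48 without S2 but -0.50, and not called, with normexp.

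These receptor calls rested on few rats. No receptor was called without S1, S3, C2 or C3, 2 met the cut-offs without C1, and without S2 6 were called lower and 1, Cx3cr1, higher, where 7.19% and 9.99% of all probes were. Without S1 the log2 fold changes were -2.83 for Ccr6, -1.44 for Cxcr5 and -1.63 for Ccr2, and without S3 they were -3.18, -1.79 and -1.65. Without C2 they were -4.02, -2.14 and -1.40, and without C3 -4.22, -1.86 and -1.82. Without C1, Ccr6 was -3.80 and not called. C1 was the congenic array well above background for Cxcr5, Ccr2 and Cxcr2, so without it only bounds can be given, at least 3.55-fold lower for Cxcr5 (not called), at least 1.004-fold for Ccr2 and none for Cxcr2, and the 2 probes that met the cut-offs there, of Ccr2 and Cxcr2, rest on congenic signals not well above background. None of the 4 was called within slide 1, where Ccr2 was -0.69.

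Ccr7, the receptor of Ccl19 and Ccl21, lay outside the table and read 8.84 in S1 and 8.46 in S3 on the scanner scale, with no other array well above background. Its congenic signal was lower by at least 3.37-fold, 12.4-fold without S2, 1.64-fold without S1 and 1.87-fold without S3. Cxcr3, the receptor of Cxcl9, Cxcl10 and Cxcl11, was likewise well above background on S1 and S3 alone, with 7.06 and 7.08, and was at least 1.33-fold lower (4.15-fold without S2, with no bound above 1 without S1 or S3). Cxcr4, the Cxcl12 receptor, was not called at -2.22 (adjusted p = 0.426, limma), and was -3.60 without S2 (adjusted p = 0.00258). Cxcr6, the Cxcl16 receptor, was -2.001, and -3.30 without S2 (limma adjusted p = 0.0222). Only 1 of the 3 congenic arrays, C2, was well above background for Cxcr6, so the size of its difference is uncertain. Without C2 the congenic signal of Cxcr6 was at least 3.33-fold lower. Ccr4, which binds Ccl17 and Ccl22, and Ccr1 and Ccr10 were also well above background on S1 and S3 alone. They were at least 1.14-fold (Ccr4) and 1.04-fold (Ccr1) lower, with no bound for Ccr10. Without S2 the bounds were 1.70-fold for Ccr4, 2.75-fold for Ccr1 and 1.56-fold for Ccr10. There was no bound above 1 for Ccr4 without S1 or C1, or for Ccr1 without S1, S3 or C1. Ccr10 likewise had none without S1, S3, C1 or C3. Cx3cr1, the receptor of Cx3cl1, had a difference of 0.56 with S2 highest of the 6 rats, and 1.34 without S2, which met the cut-offs (adjusted p = 0.0827).

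Other receptors did not have this order. Ccr9, which brings lymphocytes to the gut, read 10.66, 10.74 and 10.73 in the congenic rats and 10.28, 10.92 and 10.70 in the S rats, a difference of 0.08 with a 95% confidence interval of -0.44 to 0.60. The rats overlapped. Ccrl2, an atypical receptor that holds chemerin rather than signalling, read 7.57, 7.56 and 7.73 against 6.75, 7.04 and 6.90, all congenic rats above all S rats. Its difference of 0.72 (SE 0.17, limma adjusted p = 0.267) was under 2-fold. The scavenging receptors Ackr2 and Ackr3 differed by 0.19 and -0.09.

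**Figure D4:**
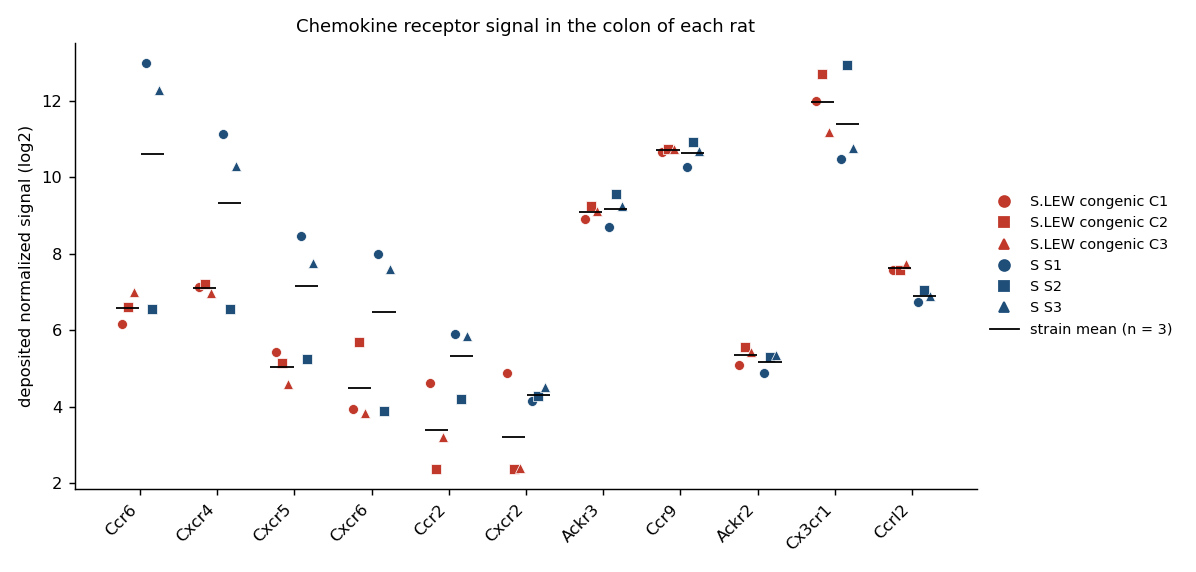
Deposited log2 signal of 11 chemokine receptor genes in the table in each rat, ordered by log2 fold change, congenic rats in red and S rats in blue with a line at each strain mean (n = 3). S1 and S3 stand apart from the other 4 rats for Ccr6, Cxcr4, Cxcr5 and Cxcr6, and for Ccrl2 all congenic rats lie above all S rats.

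Rffl, the gene of the congenic segment, lies on chromosome 10, as do 11 of the ligand genes. The paper gives Rffl as the only protein-coding gene of the mapped segment, and by that account no ligand gene lies in it. In the RefSeq order of GRCr8, Ccl2, Ccl7, Ccl11, Ccl12 and Ccl1 come before Rffl, with 8, 7, 6, 5 and 4 other protein-coding genes between, and Ccl5, Ccl9, Ccl6, Ccl3 and Ccl4 come after it, with 22 to 26 between. Cxcl16 lies 253 protein-coding genes away. Ccl2 and Ccl11 were called in opposite directions, and Ccl7, which lies between them, was lower in the congenic strain as Ccl2 was. The strains did not overlap for 4 of the 9 measured ligand probes on chromosome 10 (Ccl2, Ccl7 and Ccl5 lower, Ccl11 higher) and for 4 of the 21 on other chromosomes, Ppbp included, where 5.33% of all probes lay apart as lower and 12.4% as higher. The 2 Rffl probes each had a log2 fold change of 0.21 (adjusted p = 0.595 and 0.596, limma). Whether the position of these genes bears on their signal was not tested.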

How the data were processed

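Colon RNA of 3 S.LEW congenic and 3 S rats was labelled with Cy3 and read on single-color Agilent arrays. The authors extracted spot intensities with Agilent Feature Extraction 11.0.1.1, and the deposited scanner files hold these background-corrected intensities, with no normalization across arrays. The deposited log2 table of 23997 probes was made by the authors in GeneSpring, by quantile normalization and a filter for detection in 3 or more arrays. Its log2 scale was checked against the scanner intensities, with a correlation of at least 0.9999 per array after the same normalization. Quantile normalization gives every array the same distribution, so a shift shared by most probes is not seen.

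Probes were named by matching their accessions to RefSeq genes of GRCr8 (17997 of 30367 probes, 15162 genes). Main values were the deposited log2 values. Ligand probes outside the table were read from scanner intensities, with control spots and spots flagged as outliers (274 to 419 per array) left out, spots of a probe averaged and arrays quantile-normalized. The strain comparison was fitted without covariates with lmFit and eBayes of limma 3.58.1 (R 4.3.3), with Benjamini-Hochberg adjustment over the table. The fit was also run on data simulated with the spread of the congenic arrays in both strains. That run cannot show how the fit behaves where the S rats spread more widely. No spot was saturated, and precision is limited by having 6 arrays. Where no array of a strain was well above background, a bound is given where it exceeds 1, the brighter strain's mean over that of a floor, which on each dimmer array is the higher of the probe's own signal and the lowest signal well above background. Alternatives were scanner values with quantile, 75th percentile or normexp (offset 50) processing, a filter on all 6 arrays or none, flagged spots kept, array weights, the methods' t-test, a block for the slide or for the replicate number, slide 1 alone, and leaving out each rat.

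The members, gene lists and tests were chosen with earlier results of these data known. Every ligand gene is named, by its probe with the highest mean, with values per rat for homeostatic and epithelial genes and for inflammatory genes called in any fit with all rats or 1 rat left out. The values of 1 receptor and 1 marker, which stay in the counts and means, are not reported here. Promoters came from RefSeq (GRCr8). Figures were drawn with matplotlib 3.10.9.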

Additional observations from a re-analysis of the deposited data

Results flagged for a closer look

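The ligand probes outside the deposited table gave a signal that the comparisons with limma do not use. Ccl3, Ccl25, Cxcl2 and Cxcl17 were each well above background on 2 arrays, S1 and S3, and the second probe of Xcl1 on 1 array, S3. No congenic array was well above background for any of these 5 probes. On the scanner scale S1 and S3 read 8.19 and 7.76 for Ccl3, 6.46 and 5.69 for Cxcl17, 5.22 and 3.92 for Ccl25, and 3.74 and 3.95 for Cxcl2, and S3 read 4.30 for the second Xcl1 probe.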

How the results depend on the processing

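Depth of signal limits the dim members, and 3 rats per strain limit all of them. The main counts were 3 ligand probes lower and 1 higher, and 4 receptor probes lower and 0 higher. Ccl21 and Ccl2 met the cut-offs under every alternative run. With 75th percentile scaling 6 ligand probes were lower, where 760 of all 23975 probes were. The share of higher among all calls was 47.7% there against 58.0% in the main fit, and 48.8% with normexp. With array weights 12 ligand probes were lower and 2 higher, and 7 receptor probes lower and 1 higher. Calls rose over the whole table there, to 1744 lower and 2090 higher of 23997 probes, against 562 and 776 in the main fit. With the slide as a block, and with slide 1 alone, 0 ligand probes were higher and 0 receptors lower. Receptors called lower were 2 with normexp, with no filter and with a filter on all 6 arrays, and 0 with the methods' t-test. Over all probes these fits called 376 of 23975, 611 of 30367, 342 of 20180 and 178 of 23997 lower, in that order. Leaving out each rat gave 2 to 12 ligand probes lower, 1 to 2 higher, 0 to 6 receptors lower and 0 to 1 higher. The second ligand called higher was Cxcl11 (without S1) or Cxcl1 (without C1), which no congenic array showed well above background. In the paired fit with the replicate block, 4 ligand probes were lower (Ccl22 was added) and 1 higher, and 4 receptors lower and 0 higher. That fit called 744 of all 23997 probes lower and 794 higher. The paper housed 1 S rat with 1 congenic rat per cage, and whether same-numbered rats were cage mates is not given. Deviations of same-numbered rats correlated at -0.02, -0.13 and -0.06, and no rat's deviations correlated best with those of its own number. With 3 rats per strain this cannot tell whether they were paired.

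Differences near 0 or of dim probes changed sign. Cxcl1 was -0.19 with scanner values or no filter, -0.52 with 75th percentile scaling, -0.026 with normexp, -0.17 with flagged spots kept and -0.83 with the slide. Ppbp was -0.072 with scanner values or no filter, -0.37, -0.024 and -0.097 with 75th percentile scaling, normexp and flagged spots kept. With array weights the brighter Cxcl12 probe was 0.026, Cxcl10 -0.26, Ccl24 -0.017 and Xcl1 -0.13. With the slide as a block or slide 1 alone that Cxcl12 probe was 0.22, Ccl24 -0.039, Pf4 -0.26, Ackr2 -0.084 and Cxcr2 0.57. Without 1 rat the range was -0.23 to 1.24 for Ccl28, -0.88 to 0.44 for Cxcl14, -0.21 to 0.094 and -0.94 to 0.37 for the Cxcl12 probes, -0.22 to 0.47 for Cxcl10, -0.035 to 0.045 for Ccl24, -0.10 to 0.11 for Xcl1, -0.32 to 0.11 for Ackr3 and -0.098 to 0.22 for Ccr9. The cause of these changes was not tested.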
